A study of Mus musculus with 27 samples.

Results

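Lmx1b, Lhx2, Lhx9 and En1 are 4 homeobox genes that pattern the limb bud along its dorsal–ventral and its outward-growing axes. They were taken by name from the 23279 genes of the expression table, and all 4 were found. Their levels were followed over 27 bulk RNA-seq libraries in 9 groups, 3 libraries to a group, from a study that asked how closely limb bud-like tissue made from mouse embryonic stem (ES) cells resembles limb buds (LBs) of the embryo.

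The embryonic groups were whole tissues of Slc:ICR mice: forelimb buds (FLB) and hindlimb buds (HLB) at an early stage, which the labels give as E10.0 and the study's legend as E9.75 for forelimb and E10.25 for hindlimb, and, at E10.5, FLB, HLB, tail bud (TB), the heart (Ca) and the branchial arch (BA). The in vitro groups, ES–FLB and ES–HLB, were day 9 cultures of 1 line, EB5 Hand2::GFP +/-, which carries a fluorescent reporter in 1 allele of Hand2. Aggregates of 3000 cells were given Matrigel and BMP4 over days 1 to 5. Retinoic acid was then given on days 5 to 6 for ES–FLB, and a retinoic acid antagonist on days 6 to 6.5 for ES–HLB, and both received the BMP inhibitor LDN193189 and Wnt3 in steps, on days 7 to 9 by the labels, whereas the methods start the inhibitor earlier and end both before day 9. Only reporter-positive cells, which the study takes as mesenchyme, were sorted for RNA, whereas the embryonic limb buds kept their epithelium. How fully the sort removed the epithelium that covers the aggregates is not known, since surface ectoderm markers were still read (below). Sorting, culture and cell line thus go together in every comparison of ES–LBs with embryonic tissue and cannot be told apart there. The methods name several embryos as the source of the tissues and many aggregates for each sort. Nothing states that libraries of a group were independent experiments, so p-values measure the spread between these libraries, which may be technical.

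As background, the dorsal ectoderm of the limb bud makes Wnt7a, which switches on Lmx1b in the mesenchyme beneath it, and Lmx1b gives that mesenchyme its dorsal character. En1 is made in the ventral ectoderm, in response to BMP signals, and keeps Wnt7a out of it. Lhx2 and Lhx9 are closely related LIM-homeodomain factors of the distal mesenchyme and act, together with Lmx1b, between the FGFs of the apical ectodermal ridge and the Shh of the posterior margin. LIM-homeodomain proteins work in complexes with the cofactor Ldb1, for which LMO proteins compete.

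In the GENCODE annotation of GRCm38 (mm10), En1 lies on chromosome 1 from 120602418 to 120607992 on the plus strand and Lhx9 on the same chromosome from 138825186 to 138848577 on the minus strand. Lhx2 lies on chromosome 2 from 38339281 to 38369733 (plus strand) and Lmx1b from 33560965 to 33640511 (minus strand). All are protein coding. Lhx2 spans 2 short antisense genes and Lmx1b 1 gene model on the other strand, and none of these 3 is listed in the table. The strand setting of the read counting is not given in the sources used here, so reads of such partners could be counted in these genes.

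The sequences before the start sites are shown because Lmx1b shares its upstream region with a second transcript whose level followed it (below), and because Lhx2 and Lhx9 followed each other. They were read from RefSeq promoter windows (GRCm38.p6, 250 bases before to 50 after a start), which were found for all 4 genes, and were trimmed to the bases outside the gene's own exons. Each is given 5′ to 3′ on the strand of its gene, and capitals mark CCAAT or its reverse ATTGG. The positions are chr2:33641209-33641348 for Lmx1b, chr2:38339031-38339270 for Lhx2, chr1:138842458-138842694 for Lhx9, where the start used lies inside the longest gene model, and chr1:120602237-120602417 for En1. The starts used for Lmx1b, Lhx2 and En1 also lie inside a RefSeq or GENCODE model of the gene. All printed stretches therefore stop before the start used, and the CCAAT at −84 of Lmx1b is not printed.
Lmx1b: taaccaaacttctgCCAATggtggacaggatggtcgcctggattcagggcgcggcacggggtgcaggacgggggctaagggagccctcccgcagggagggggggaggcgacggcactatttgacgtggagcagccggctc
Lhx2: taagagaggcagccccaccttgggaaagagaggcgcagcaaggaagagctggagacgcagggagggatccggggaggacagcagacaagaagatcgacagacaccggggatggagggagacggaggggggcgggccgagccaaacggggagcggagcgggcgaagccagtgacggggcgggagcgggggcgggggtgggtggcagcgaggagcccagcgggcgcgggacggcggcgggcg
Lhx9: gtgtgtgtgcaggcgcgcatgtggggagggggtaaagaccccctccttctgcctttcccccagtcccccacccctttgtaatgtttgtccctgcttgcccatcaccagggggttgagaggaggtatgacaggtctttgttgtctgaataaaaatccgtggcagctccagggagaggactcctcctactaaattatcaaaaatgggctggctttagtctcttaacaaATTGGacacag
En1: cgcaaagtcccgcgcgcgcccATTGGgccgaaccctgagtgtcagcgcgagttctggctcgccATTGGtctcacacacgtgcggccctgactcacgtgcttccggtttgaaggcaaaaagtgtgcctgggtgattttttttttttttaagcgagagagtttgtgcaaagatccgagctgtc
Over the whole 300-base windows, Lmx1b held CCAAT 2 times, En1 ATTGG 2 times, Lhx9 ATTGG 1 time and the Lhx2 windows neither, and 37.4% of all 32851 windows held the motif on either strand. The homeodomain core TAATTA, which 5.29% of all windows hold, was in none of the windows of the 4 genes. G and C made up 74.7% of the upstream Lhx2 window, 65.7% of that of Lmx1b, 57.0% of that of En1 and 55.3% of that of Lhx9, against a median of 52.7%. A letter match is a description of these windows only.

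Depth was read from the spacing of low values and ran from 3661850 to 22142313 reads per library. The early limb buds were deepest, at 19642258 reads or more, and all other libraries held at most 8541937, so stage and depth cannot be told apart. Values are CPM (the reads of a gene scaled to the total reads of its library) after scaling between libraries, and 3 reads correspond to 0.152 to 0.551 CPM, a floor that covers counting error only. Library 2 of the E10.5 HLBs is listed at 0 for 3936 of 3948 genes of several chromosomes that exceeded 2 CPM in both other libraries. None of the 4 genes lies in the lost region, but the library's deposited CPM are inflated, with a scaling factor of 1.51, so its results are also given without it. The tissue labels matched their defining markers: summed heart markers were at 13582 CPM or more in Ca and at most 21.7 CPM elsewhere, tail bud markers at 249 or more in TB and at most 6.15 elsewhere, and Tbx5, the forelimb factor, was at 71.4 ± 3.01 CPM (SD, n = 3) in ES–FLB against 3.18 ± 0.911 in ES–HLB.

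All 4 genes were higher in the embryonic limb buds than in the ES–LBs of the same limb type at the early stage, and the mesenchymal genes Lmx1b, Lhx2 and Lhx9 fell furthest. The plot of levels by library shows Lmx1b, Lhx2 and Lhx9 in 2 separate ranges, with all 12 embryonic limb bud libraries above all 15 others. En1 did not separate the limb buds from the other groups in this way.

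**Figure D1:**
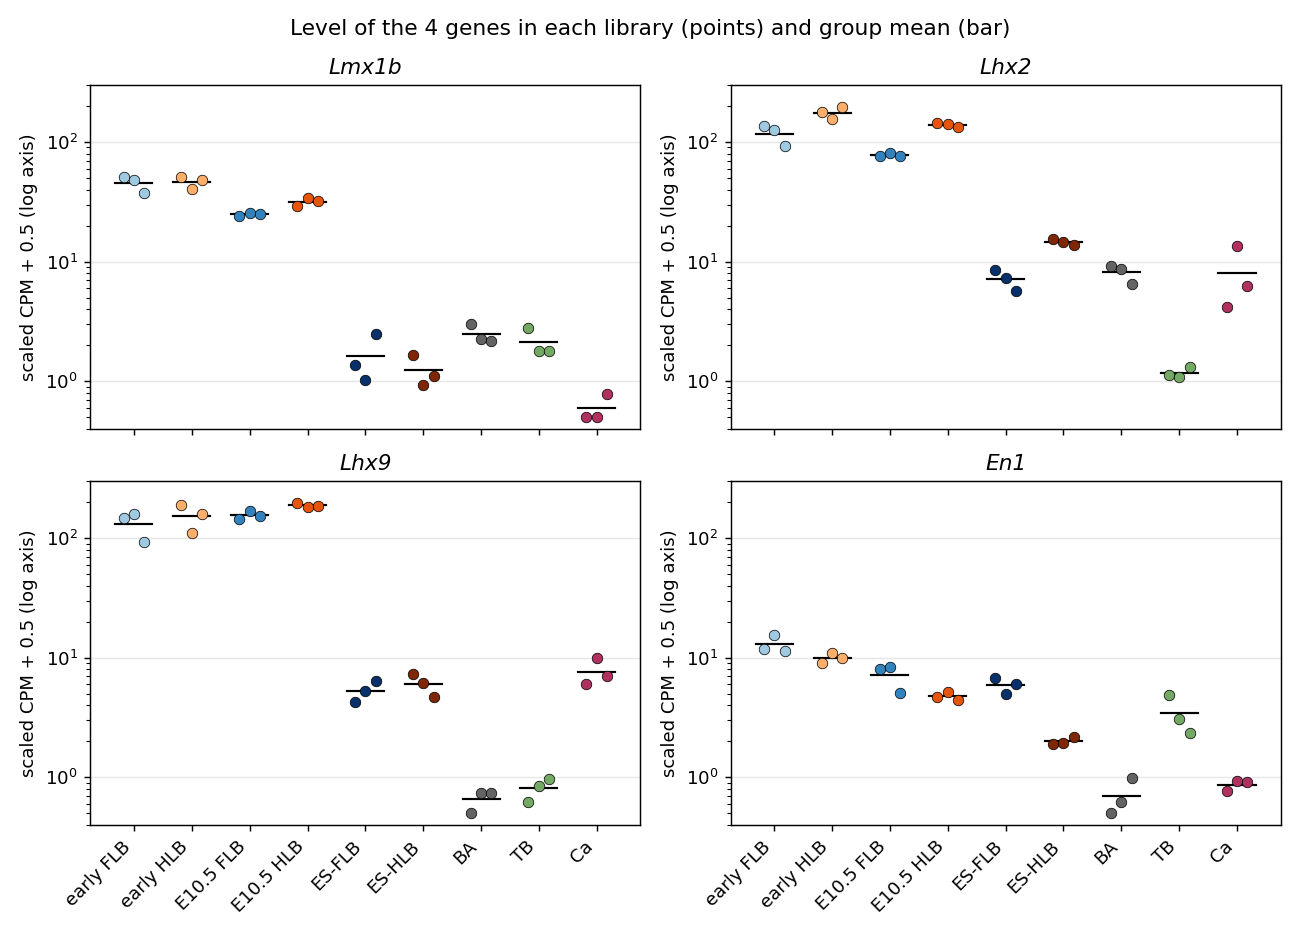
Scaled CPM plus 0.5 (log axis) of Lmx1b, Lhx2, Lhx9 and En1 in each of the 27 libraries, 3 points to a group with a bar at the group mean. The 12 limb bud libraries sit at 23.8 CPM or more for Lmx1b, 75.6 or more for Lhx2 and 91.8 or more for Lhx9, above every other library, whereas the En1 values of ES–FLB (4.48 to 6.25 CPM) lie among those of the E10.5 limb buds.

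Lmx1b, the dorsal mesenchyme gene, was at 50.4, 48.0 and 36.8 CPM in the early FLB libraries and at 50.5, 40.3 and 47.2 CPM in the early HLB libraries. It was at 23.8, 25.1 and 24.4 CPM in the E10.5 FLBs and at 28.5, 33.6 and 31.4 CPM in the E10.5 HLBs. The early groups overlapped each other and lay above both E10.5 groups, and the E10.5 HLBs lay above the E10.5 FLBs. In ES–FLB it was at 0.858, 0.527 and 1.97 CPM, from 27 reads over the 3 libraries, and in ES–HLB at 1.16, 0.430 and 0.603 CPM, from 17 reads. BA (1.98 ± 0.455 CPM, n = 3) and TB (1.61 ± 0.567) were also low, and each group from BA through TB and ES–FLB to ES–HLB overlapped its neighbour in that order. In Ca, 2 libraries had no read and the third had 2 reads (0.278 CPM), under the floor of 3 reads.

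Lhx2 was highest in the early HLBs, at 177, 156 and 194 CPM, and the early FLBs were at 134, 126 and 91.2 CPM, so the early groups did not overlap. The E10.5 HLBs were at 143, 142 and 133 CPM and the E10.5 FLBs at 75.6, 80.4 and 76.3 CPM, again without overlap. ES–HLB held 15.04, 14.0 and 13.4 CPM against 8.09, 6.85 and 5.16 CPM in ES–FLB, so ES–HLB was the higher in every library. It was at 8.77, 8.14 and 5.97 CPM in BA and at 3.71, 13.1 and 5.71 CPM in Ca. The second Ca library stood apart from its partners and lay just under the range of ES–HLB, and BA, Ca and ES–FLB overlapped each other. TB was lowest, at 0.677 ± 0.119 CPM (SD, n = 3).

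Lhx9 was at 147, 157 and 91.8 CPM in the early FLBs and at 189.9, 111 and 159.9 CPM in the early HLBs. At E10.5 it was at 145, 168 and 153 CPM in FLB and at 195, 180.1 and 187 CPM in HLB. The early groups were the most spread and overlapped each other and the E10.5 FLBs, and the early HLBs overlapped the E10.5 HLBs as well. Beyond the limb buds, the highest values were in Ca (5.56, 9.38 and 6.54 CPM), followed by ES–HLB (6.81, 5.59 and 4.22 CPM) and ES–FLB (3.80, 4.74 and 5.90 CPM). These 3 groups overlapped. TB held 0.315 ± 0.172 CPM and BA 0.158 ± 0.137 CPM, each with fewer than 5 reads in any library.

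En1, the ventral ectoderm gene, had the lowest CPM of the 4 genes in every limb bud group. It was at 11.4, 15.1 and 10.98 CPM in the early FLBs and at 8.57, 10.4 and 9.50 CPM in the early HLBs, and at E10.5 at 7.58, 7.86 and 4.57 CPM in FLB and 4.23, 4.69 and 3.93 CPM in HLB. The ES–FLB libraries held 6.25, 4.48 and 5.53 CPM and those of ES–HLB 1.41, 1.43 and 1.69 CPM. The E10.5 FLBs, ES–FLB and the E10.5 HLBs overlapped as neighbours in this order, and ES–HLB lay below all of them. TB held 4.41, 2.59 and 1.86 CPM and so overlapped the E10.5 HLBs, and Ca (0.370 ± 0.0908 CPM) and BA (0.199 ± 0.249 CPM) were at or near the floor.

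Genes can be compared with each other only per length, here as CPM per kilobase of exon. The length was that of all GENCODE exons of a gene, 9494 bases for Lhx9 and 4393 for Lhx2. The authors counted reads on UCSC gene models, so the order of the genes depends on the length chosen. On that scale the E10.5 HLBs held 31.7 ± 1.30 of Lhx2, 19.7 ± 0.764 of Lhx9, 6.39 ± 0.523 of Lmx1b and 1.63 ± 0.147 of En1 (SD, n = 3). In ES–FLB the order was another: En1 came first, at 2.07 ± 0.340, before Lhx2 at 1.53 ± 0.334, Lhx9 at 0.507 ± 0.111 and Lmx1b at 0.229 ± 0.155. In ES–HLB, Lhx2 (3.22 ± 0.189) was again first, and Lhx9 (0.584 ± 0.137) and En1 (0.576 ± 0.0584) were level.

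Each difference was put to limma's moderated test on the log2(CPM + 0.5) scale, over all genes that reached 1 CPM in 3 libraries, with Benjamini-Hochberg adjustment over all of them. A gene was called at an adjusted p below 0.05. The 0.5 added to every value makes the differences of low genes smaller than they would be as ratios. The first question was whether the genes differ between hindlimb and forelimb. By the study's legend the early HLBs were older than the early FLBs, so limb type and age cannot be told apart at that stage. At the early stage 0 of the 4 genes was called, where 19.8% of all 12573 genes tested were, and at an unadjusted p below 0.05 Lhx2 and En1 passed (0.0149 and 0.0177). Lhx2 was 0.60 ± 0.17 (SE) log2 units higher in HLB (adjusted p = 0.0659) and En1 0.37 ± 0.13 lower (adjusted p = 0.0742). The third early FLB library held less Lmx1b, Lhx2 and Lhx9 than its partners, and without it the Lhx2 difference, 0.43, passed (adjusted p = 0.0136).

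At E10.5, 4 of 4 genes were called between the limb types, with 28% of all 12667 genes. Lhx2 was 1.79-fold higher in HLB (log2 difference 0.84 ± 0.06, adjusted p = 1.5e-16), Lmx1b 1.27-fold higher (0.34 ± 0.10, adjusted p = 0.00629) and Lhx9 higher by a log2 difference of 0.27 ± 0.05 (adjusted p = 4.89e-05). En1 was the only one of the 4 that was lower in HLB (−0.55 ± 0.21, adjusted p = 0.0441). Without the truncated HLB library the differences of Lhx2 (0.83), Lhx9 (0.30) and En1 (−0.61) still passed, and that of Lmx1b was 0.29 with an adjusted p of 0.051. The En1 call also missed the threshold without E10.5 FLB library 1 or 2 and without E10.5 HLB library 1 or 3 (adjusted p up to 0.219), and in the CPM as deposited 0 of the 4 genes passed. In a joint model of the 27 libraries only Lhx2 of the 4 passed, and without limma's trend and robust settings Lhx9 and En1 did not. The difference between the limb types did not change detectably with stage for any of the 4 genes (adjusted p from 0.136 to 0.94, with 25.2% of all genes called). Without early FLB library 3, however, the stage changes of Lmx1b and Lhx2 did differ between the limb types (adjusted p = 0.0175 and 0.00424). By the study's legend the step between the stages was longer in the forelimb, so limb type and length of the step cannot be told apart here.

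Other genes of the dorsal–ventral and distal signals differed between limb types as well. Fgf8, the main FGF of the apical ectodermal ridge, was higher in HLB at both stages, by 0.88 ± 0.12 and 0.92 ± 0.10 log2 units (adjusted p = 0.00124 and 1.07e-09). Wnt7a was higher in the E10.5 HLBs (0.59 ± 0.18, adjusted p = 0.0129). The truncated library gives no value for Wnt7a, Msx1 or Lmo1. Msx1, a BMP-responsive mesenchyme gene, was higher in the E10.5 HLBs by 0.74 ± 0.06, and its relative Msx2 was lower by 0.98 ± 0.09. Of the 12 LIM-homeodomain genes listed, 7 could be tested at E10.5, of which Lhx2, Lhx9, Lmx1b and the hindlimb-associated Isl1 rose and 0 fell. Lmo1, a competitor for the shared cofactor, rose by 1.35 ± 0.13 (adjusted p = 3e-11). Of the 10 LIM cofactor genes listed, Ssbp3 rose as well, while Ldb1, Ssbp2 and Lmo2 fell and 5 were not called.

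Between the stages, Lmx1b and En1 fell in both limb types, Lhx2 fell in both and Lhx9 did not pass the test in either. In the forelimb 3 of 4 genes were called, with 65.4% of all 12838 genes called and 37.6% called lower. Lmx1b fell by 0.86 ± 0.10 log2 units (adjusted p = 1.59e-06), En1 by 0.88 ± 0.19 (adjusted p = 0.000965) and Lhx2 by 0.57 ± 0.15 (adjusted p = 0.0199). The Lhx2 call was lost without early FLB library 2 and without E10.5 FLB library 1 or 3 (adjusted p from 0.0612 to 0.0805). In the hindlimb 3 of 4 genes were called, with 33.2% of all 12530 genes called and 21.5% called lower: En1 fell by 1.06 ± 0.15 (adjusted p = 0.00018), Lmx1b by 0.55 ± 0.09 (adjusted p = 0.000629) and Lhx2 by 0.33 ± 0.07 (adjusted p = 0.00384), and these 3 calls held without the truncated library. All 3 were lost in the CPM as deposited, and those of Lmx1b and Lhx2 in a joint model of the 27 libraries, as was the forelimb call of Lhx2 under both. Lhx9 differed by 0.27 in the forelimb (95% interval −0.40 to 0.94) and by 0.32 in the hindlimb (−0.26 to 0.90).

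The ectoderm changed with stage beside these genes. Of 12 surface ectoderm markers, 9 fell and 3 rose in the forelimb and 8 fell and 1 rose in the hindlimb, and their summed level went from 497–623 CPM to 387–399 CPM in FLB and from 452–537 CPM to 365–388 CPM in HLB, over the 2 complete E10.5 HLB libraries. Wnt7a fell by 2.15 ± 0.12 log2 units in the forelimb and 1.402 ± 0.19 in the hindlimb. In bulk tissue, fewer cells of a type and less RNA per cell cannot be told apart. Of the 11 genes listed as dorsal–ventral signals, 8 fell, Lmx1b and En1 among them, and 2 rose in each limb type, beside 65.4% (forelimb) and 33.2% (hindlimb) of all genes called, with median differences of −0.41 and −0.31 against −0.06 and −0.05 over all genes tested.

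**Figure D2:**
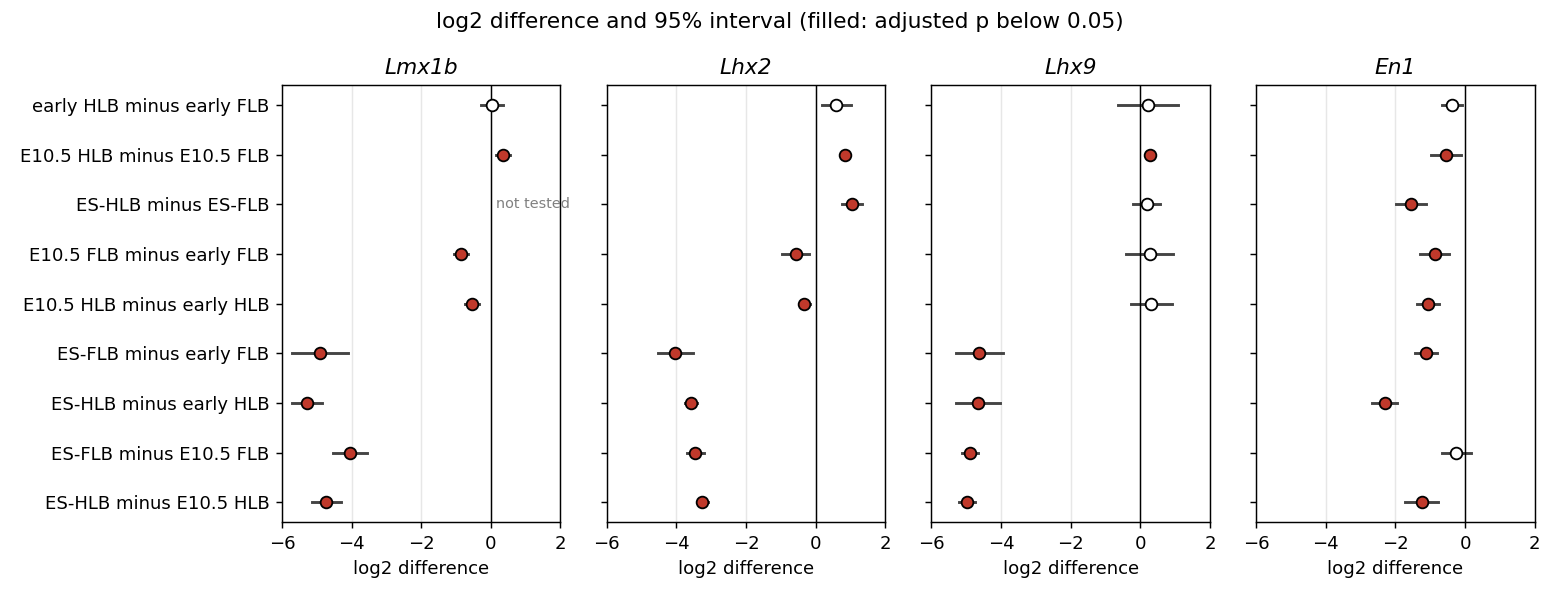
log2 difference (points) with its 95% interval (lines) for Lmx1b, Lhx2, Lhx9 and En1 in 9 comparisons of 2 groups, with filled points where the limma adjusted p was below 0.05. The differences of ES–LBs from limb buds lie between −5.28 and −3.25 for the 3 LIM-homeodomain genes, while En1 lies between −2.31 and −0.25, and the differences between limb types and stages are all within 1.55 log2 units of 0.

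ES–LBs were then set against limb buds of the same type. The study itself singled out Lmx1b among the genes low in ES–LBs from these samples. All 4 genes were chosen with earlier results of these data known, so their direction is not independent evidence. Against the early FLBs, 4 of 4 genes were lower in ES–FLB, where 81.9% of all 13140 genes were called and 42.5% called lower. Lmx1b was 29.9-fold lower (log2 difference −4.90 ± 0.33, adjusted p = 7.81e-06), Lhx9 24.6-fold lower (−4.62 ± 0.26, adjusted p = 1.67e-05) and Lhx2 16.3-fold lower (−4.03 ± 0.21, adjusted p = 2.66e-06). En1 was 2.19-fold lower (−1.13 ± 0.15, adjusted p = 3.05e-06).

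Against the early HLBs, 4 of 4 genes were lower in ES–HLB, where 78.3% of all 13238 genes were called and 40.6% called lower. Lmx1b was 38.8-fold lower (−5.28 ± 0.19), Lhx9 25.3-fold (−4.66 ± 0.25), Lhx2 at a log2 difference of −3.58 ± 0.08 and En1 4.97-fold lower (−2.31 ± 0.17), with adjusted p-values from 1.18e-13 to 1.01e-05. The comparisons with the E10.5 limb buds share the ES–LB libraries. There, 3 of 4 genes were lower in ES–FLB (71.7% of all genes called, 36.2% lower), with Lhx9 at −4.89 ± 0.11, Lmx1b at −4.05 ± 0.24 and Lhx2 at −3.46 ± 0.12, and En1 was not called (−0.25, 95% interval −0.66 to 0.16, adjusted p = 0.258). Without E10.5 FLB library 3, which held the least En1 of its group, the En1 difference was −0.48 (adjusted p = 0.0268). In ES–HLB 4 of 4 genes were lower than in the E10.5 HLBs (73.5% of all genes called, 36.3% lower), with En1 at −1.25 ± 0.23 and the others between −4.98 and −3.25. These calls held without the truncated library, where En1 had an adjusted p of 0.000148.

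The signals around these genes differed between ES–LBs and limb buds too. Wnt7a, the ectodermal signal upstream of Lmx1b, was at 36.5 ± 5.81 CPM (n = 3) in the early FLBs and 32.8 ± 6.37 in the early HLBs against 0.123 ± 0.123 in ES–FLB and 0.209 ± 0.195 in ES–HLB, and these ES–LB means were under the worth of 3 reads. Fgf8 was at 29.99 ± 5.08 and 55.1 ± 4.92 CPM in the early limb buds, 0.0819 ± 0.142 in ES–FLB and 1.02 ± 0.363 in ES–HLB. Fgf10, the mesenchymal FGF that sustains the ridge, differed less, by −1.31 ± 0.08 and −1.50 ± 0.08 log2 units. Bmp4 was higher in both ES–LB types than in the early limb buds, by 1.19 ± 0.05 in ES–FLB. Bmpr1a and Smad1 were also higher in both types, Smad5 in ES–FLB and Bmp2 in ES–HLB. Bmp7, Msx1 and Msx2 were lower in both ES–LB types, by 1.03 to 2.37 log2 units.

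Of the 11 dorsal–ventral genes, which include Lmx1b and En1 themselves, 6 fell and 4 rose in each ES–LB type, beside 81.9% (forelimb) and 78.3% (hindlimb) of all genes called, with median differences of −1.13 for forelimb and −1.03 for hindlimb, against −0.03 and −0.02 over all genes. The 12 surface ectoderm markers summed to 127–186 CPM (ES–FLB) and 245–258 CPM (ES–HLB) in vitro, below every embryonic limb bud, with 9 of 12 lower and 1 (forelimb) or 2 (hindlimb) higher, and none of the 12 at 0 in all libraries of a group. Limb mesenchyme markers summed to 2387–2621 CPM in ES–LBs, above the 1381–1983 CPM of limb buds and the 1667–1732 CPM of BA. The list includes Hand2, whose reporter was used for the sort. Against the early limb buds 7 of the 10 markers were higher in each ES–LB type, and 2 (forelimb) or 3 (hindlimb) were lower. Against the E10.5 limb buds 5 (forelimb) or 6 (hindlimb) were higher and 4 were lower in each type. The part of the ectoderm or of the sort in the differences of the 4 genes was not tested.

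Not every LIM-homeodomain gene was low in ES–LBs. Of 9 tested in the forelimb, Lhx1, Lhx2, Lhx9, Lmx1a and Lmx1b fell and Lhx6, Lhx8 and Isl1 rose, and of 9 in the hindlimb, Lhx2, Lhx9, Isl2, Lmx1a and Lmx1b fell and Lhx1, Lhx6, Lhx8 and Isl1 rose. Lhx6 and Lhx8, known from the branchial arch mesenchyme, were at 20.5 ± 0.995 and 1.73 ± 0.442 CPM in ES–FLB, 11.99 ± 2.14 and 3.72 ± 0.699 in ES–HLB, and 52.7 ± 14.2 and 60.0 ± 9.96 in BA. Isl1, which acts early in the hindlimb field and in ventral mesenchyme, was at 23.6 ± 3.24 CPM in ES–FLB against 2.22 ± 0.398 in the early FLBs (3.15 ± 0.15 log2 units higher, adjusted p = 4.68e-12). The cofactor Ldb1 averaged 215 to 253 CPM over all limb bud and ES–LB groups, with a difference of 0.11 log2 units between ES–FLB and the early FLBs (adjusted p = 0.0218), and its relative Ldb2 was 1.83 ± 0.08 log2 units higher in ES–FLB than in the early FLBs and 0.79 ± 0.08 higher in ES–HLB than in the early HLBs.

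**Figure D3:**
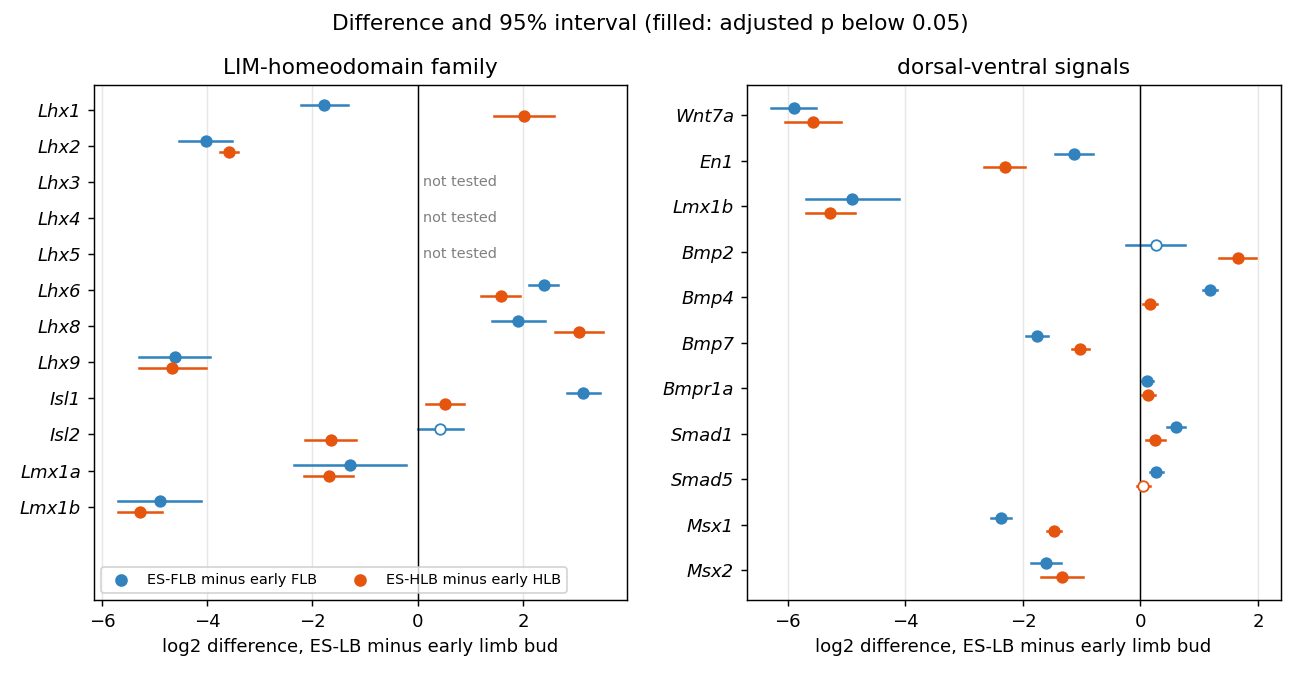
log2 difference with 95% interval of ES–FLB (blue) and ES–HLB (orange) from the early limb bud of the same type, for 12 LIM-homeodomain genes and 11 dorsal–ventral signal genes, with filled points where the limma adjusted p was below 0.05. Lmx1b, Lhx2, Lhx9 and Wnt7a lie furthest to the left in both types, and Lhx6, Lhx8 and Isl1 lie to the right of 0.

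Between the in vitro limb types, Lhx2 and En1 were called in opposite directions, where 25% of all 13158 genes were called, 12.7% of them higher and 12.3% lower as shares of those tested. Lhx2 was 2.06-fold higher in ES–HLB (log2 difference 1.04 ± 0.15, adjusted p = 1.2e-06), in every library, as in the embryo at E10.5. En1 was 2.92-fold lower in ES–HLB (−1.55 ± 0.21, adjusted p = 7.27e-07), with 35 reads over its 3 libraries against 130 in ES–FLB. Lhx9 did not pass (0.18, 95% interval −0.21 to 0.57, adjusted p = 0.56), and Lmx1b was too low to be tested.

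The difference between the limb types in vitro was then tested against that in the early limb buds, which by the study's legend differ in age as well. En1 was the only one of the 4 genes called, with 22.3% of all 13650 genes called and 9.86% called lower: its hindlimb-minus-forelimb difference was 1.18 ± 0.22 log2 units lower in ES–LBs than in the embryo (adjusted p = 0.000581). The Lhx2 difference was 0.45 higher in vitro (95% interval −0.09 to 0.98, adjusted p = 0.228), and passed without early FLB library 3 (0.62, adjusted p = 0.0291). Those of Lhx9 (−0.04, −0.96 to 0.88) and Lmx1b (−0.37, −1.30 to 0.55) were not called.

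The surface ectoderm markers were compared between the in vitro limb types as well. Of the 12, Cdh1, Krt5, Krt14, Krt8, Krt18, Grhl3 and Perp were higher in ES–HLB and 0 were lower, with a median difference of 0.66 against 0.00 over all genes. Bmp4 was lower in ES–HLB by 1.04 ± 0.05 (adjusted p = 8.78e-17), at 92.4 ± 2.13 CPM against 190.5 ± 12.2 in ES–FLB. Msx2 was lower by 0.60 ± 0.10. Of the other dorsal–ventral genes listed, Bmpr1a, Smad1 and Smad5 were lower as well, while Bmp2, Bmp7 and Msx1 were higher in ES–HLB. The part of these genes, or of the ectoderm, in the En1 difference was not tested. En2, the other Engrailed gene, was at 0.906 ± 0.162 CPM in ES–HLB and 0.245 ± 0.245 in ES–FLB and was too low to be tested there.

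**Figure D4:**
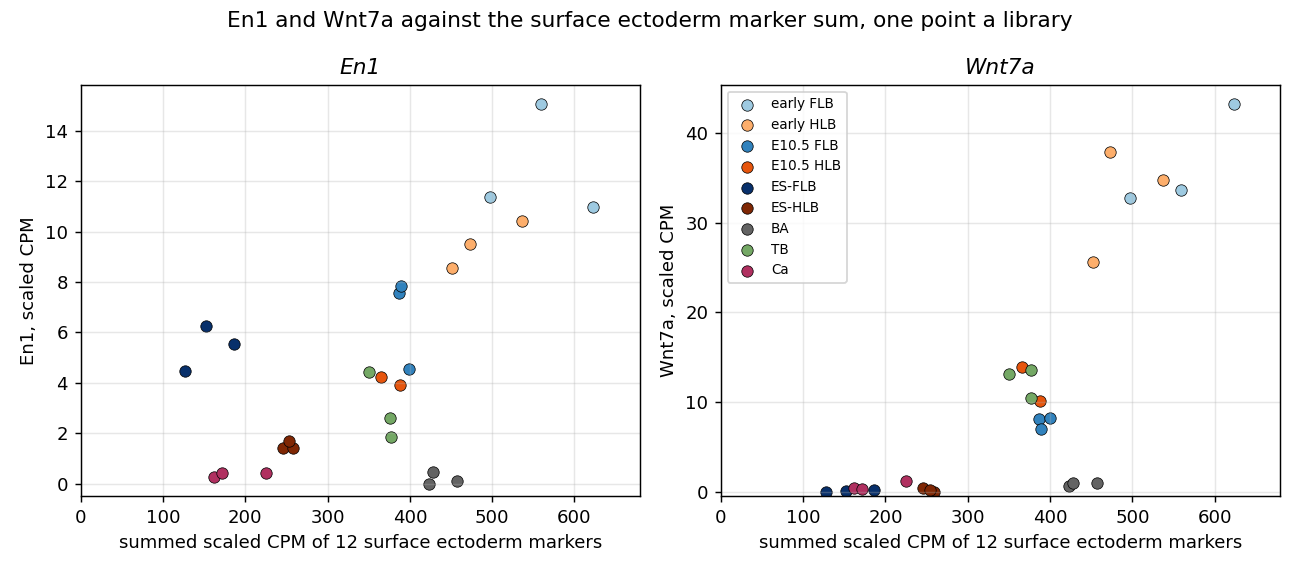
Scaled CPM of En1 (left) and Wnt7a (right) against the summed CPM of 12 surface ectoderm markers, 1 point to a library, without the truncated E10.5 HLB library. The ES–FLB points (4.48 to 6.25 CPM of En1) lie above and to the left of the ES–HLB points (1.41 to 1.69 CPM). BA has a sum of 423 to 457 CPM and at most 0.478 CPM of En1, and Wnt7a is near 0 in all ES–LB libraries. The part of the ectoderm in these levels was not tested.

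The E10.5 limb buds were also set against the other E10.5 tissues sampled, BA, TB and Ca. Against BA, 4 of 4 genes were higher in the mean of the E10.5 limb buds (33.6% of all 14470 genes called, 16.1% higher), with log2 differences of 8.04 ± 0.21 for Lhx9, 3.70 ± 0.24 for Lhx2, 3.51 ± 0.21 for Lmx1b and 3.11 ± 0.21 for En1. Against TB, 4 of 4 were higher (46.3% called, 22.9% higher), at 7.74 ± 0.21 for Lhx9, 6.47 ± 0.24 for Lhx2 and 3.76 ± 0.21 for Lmx1b but only 0.81 ± 0.21 for En1 (adjusted p = 0.0017). Against Ca, 4 of 4 were higher (77.1% called, 38.8% higher), at 4.51 ± 0.21 for Lhx9, 3.88 ± 0.24 for Lhx2 and 2.74 ± 0.21 for En1. Where the other tissue is at or under the floor, as for Lmx1b in Ca, Lhx9 in BA and TB, and En1 in BA and Ca, the size of such a difference depends on the 0.5 added.

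ES–LBs lay between these tissues and the limb buds for some genes only. Against BA (69.4% of all genes called), the averaged ES–LBs were higher for Lhx9 (3.11 ± 0.21) and En1 (2.36 ± 0.21), lower for Lmx1b (−0.87 ± 0.21, adjusted p = 0.000582) and not called for Lhx2 (0.34, adjusted p = 0.211). That Lhx2 average joined unlike types: ES–HLB (13.4 to 15.04 CPM) lay above BA (5.97 to 8.77 CPM), and ES–FLB (5.16 to 8.09 CPM) overlapped it. Against TB (76%), the averaged ES–LBs were higher for Lhx2 (3.12 ± 0.24) and Lhx9 (2.80 ± 0.21), lower for Lmx1b (−0.62 ± 0.21, adjusted p = 0.00928, and 0.115 without TB library 1) and not called for En1 (0.06, adjusted p = 0.804). In En1 the ES–LB types lay on either side of TB (1.86 to 4.41 CPM), with ES–FLB above (4.48 to 6.25 CPM) and ES–HLB below (1.41 to 1.69 CPM). Their average therefore does not show a match with TB. Against Ca (80.8%), the averaged ES–LBs were higher for En1 (1.99 ± 0.21) and Lmx1b (1.21 ± 0.21) and not called for Lhx2 (0.53, adjusted p = 0.0512) or Lhx9 (−0.43, adjusted p = 0.0705). The Lhx2 difference from Ca was 1.00 without the second Ca library (adjusted p = 3.97e-06) and also passed without ES–FLB library 3 (adjusted p = 0.0314), and that of Lhx9 passed without Ca library 1, ES–FLB library 3 or ES–HLB library 1 (lowest adjusted p = 0.035). Epicardial and mesothelial markers summed to 360–438 CPM in Ca, and to 219.8–228 CPM (ES–FLB) and 81.6–92.7 CPM (ES–HLB) in vitro, and neural markers to 165–192 CPM in TB, 47.9–76.6 CPM in ES–LBs and 9.61–19.5 CPM in limb buds. Their part in the Lhx2, Lhx9 and En1 levels was not tested.

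Because Lhx2 and Lhx9 are close relatives, their balance within a library was followed as log2 of Lhx9 over Lhx2, each with 0.5 CPM added, a value that the scaling between libraries hardly touches. It is not corrected for gene length, so its changes between groups can be read but its sign does not say which gene is the more abundant. It was 1.00 ± 0.0607 (SD, n = 3) in the E10.5 FLBs and 0.43 ± 0.0761 in the E10.5 HLBs. At the early stage it was 0.15 ± 0.160 in FLB and −0.22 ± 0.298 in HLB. The 3 E10.5 libraries of each limb type lay above the 3 early ones, by 0.84 in the forelimb and 0.65 in the hindlimb (two-sided exact permutation test, p = 0.1 for each, the smallest that 3 against 3 libraries can give). Over both types, 6 E10.5 libraries exceeded 6 early ones by 0.75 (exact permutation p = 0.00216, adjusted over the 5 tests of the ratio 0.0054). The splits of this pooled test moved libraries freely between limb types. Libraries of a group share their tissue, so its p describes these libraries only.

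The ratio was lower in ES–LBs than in limb buds. The log2 ratio was −0.44 ± 0.589 in ES–FLB and −1.30 ± 0.238 in ES–HLB. The mean of the 6 ES–LB libraries was 1.21 below that of the 12 limb bud libraries (exact permutation p = 0.000593, adjusted 0.00296). These splits also moved libraries freely between limb types and stages, so this p too describes these libraries only. The ES–FLB libraries ran from −0.998 to 0.18 and reached into the range of the early limb buds, while all 3 of ES–HLB, from −1.56 to −1.09, lay below every limb bud library. The ES–HLB and ES–FLB ratios differed by −0.86 (exact permutation p = 0.1, the smallest possible). Elsewhere it was 0.08 ± 0.4999 in Ca and lowest in BA (−3.63 ± 0.545). Per kilobase of GENCODE exon, the mean of Lhx2 exceeded that of Lhx9 in every group. The means were 17.6 ± 0.592 against 16.4 ± 1.23 CPM per kilobase (SD, n = 3) in the E10.5 FLBs. They were 3.22 against 0.584 in ES–HLB and 1.71 against 0.755 in Ca.

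**Figure D5:**
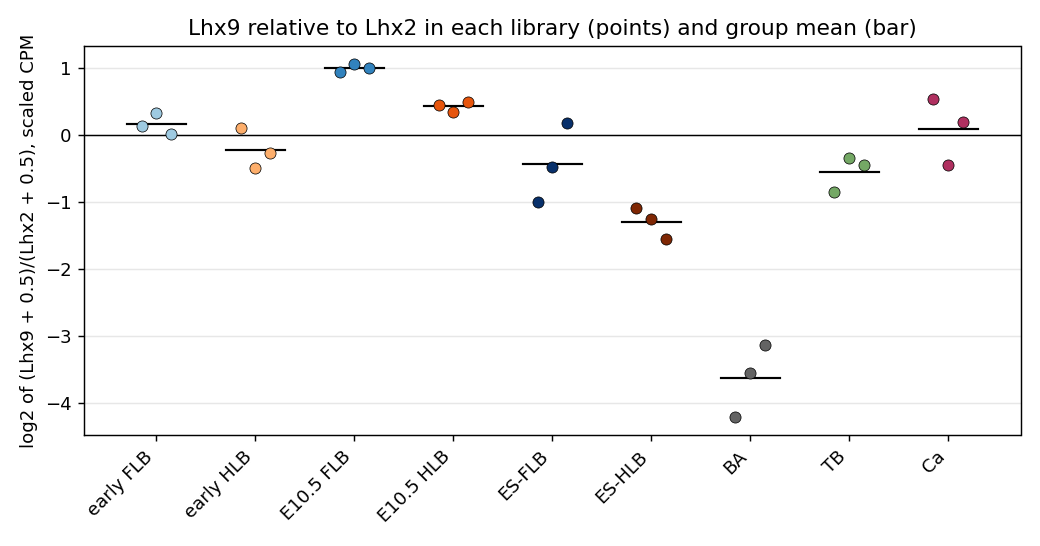
log2 of Lhx9 over Lhx2 (scaled CPM, 0.5 added to each) in each library, with a bar at the mean of each group of 3. The E10.5 FLBs lie highest (0.94 to 1.06), the early limb buds around 0, and ES–HLB (−1.56 to −1.09) below all limb buds, with BA lowest.

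The genes whose pattern was most like that of each member were ranked by Pearson r of log2(CPM + 0.5) over the 27 libraries, among 12405 other genes with a group mean of 5 CPM or more. Libraries of a group share their tissue, so r is a description. The nearest gene to Lmx1b was C130021I20Rik (r = 0.98), a noncoding transcript on the opposite strand of chromosome 2, from 33641193 to 33646354. Its start lies 681 bases beyond the Lmx1b end in GENCODE, while the RefSeq models of the pair overlap by 16 bases, and the Lmx1b upstream sequence printed above lies inside it. It was at 145 ± 33.9 CPM in the early FLBs and 217 ± 48.0 in the early HLBs, at 168 ± 1.88 in FLB and 173 ± 2.28 in HLB of E10.5, and at 6.47 ± 1.54 in ES–FLB and 3.64 ± 1.19 in ES–HLB. Like Lmx1b it was low in BA (8.41 ± 1.43 CPM) and TB (5.66 ± 1.49) and had no read in 2 Ca libraries, but its mean was not lower in the E10.5 FLBs than in the early FLBs, where Lmx1b fell.

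Edar, an ectodysplasin receptor of the ectoderm, and Bhlha9, a gene of the apical ectodermal ridge, came next to Lmx1b (r = 0.97 and 0.96), before Dcbld1 and Casd1. Lhx2 and Lhx9 were each other's nearest gene (r = 0.93), and Lmo1 was among the 5 nearest to both (0.88 and 0.87, over the 26 libraries that give it a value), together with Fam176b, Prpsap2 and Fgf10 for Lhx2 and Gja3, Mat2b and Rspo4 for Lhx9. The genes nearest to En1 were Hoxc8 (r = 0.94), Mira, Hoxa7, Hoxc6 and Slc27a6, and its r was 0.75 with Lmx1b, 0.71 with Lhx9 and 0.60 with Lhx2. Hoxc8, a trunk-level Hox gene, was at 27.4 ± 3.18 CPM in the early FLBs, 8.53 ± 0.393 in ES–FLB, 3.42 ± 0.109 in ES–HLB and 8.91 ± 0.283 in TB, and had no read in BA or Ca.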

How the data were processed

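The 27 libraries were stranded mRNA libraries of 9 groups, named from the sample labels. The authors mapped single-end reads with HISAT2 2.0.4 to mm10 and counted them with Cuffdiff (the submitters' notes also list Cufflinks 2.1.1, edgeR 3.16.2 and FastQC 0.11.5), and deposited CPM per gene and library. From these CPM, libraries were scaled by an unweighted trimmed mean of log ratios (30% and 5% trimmed), and genes reaching 1 CPM in 3 or more libraries entered a limma 3.58.1 model of log2(CPM + 0.5) (trend, robust) in R 4.3.3, with adjustment by Benjamini-Hochberg. Pairs of groups used 6 libraries, differences of differences 12, and contrasts with BA, TB and Ca all 27. In the truncated E10.5 HLB library 8340 values were set to missing. Scripts were tested on simulated data. Figures and sequence searches used Python 3.11.15 and matplotlib 3.10.9, and gene positions RefSeq and GENCODE on GRCm38. Depth was taken from the value of 1 read, of which 92.3% to 98.9% of a library's values above 0 were whole multiples (within 0.02 reads), so the planned count test was not run. Alternatives were other scalings, filters, pseudocounts and thresholds, a joint model of the 27 libraries, a block for replicate numbers and each library left out. The genes and gene lists were chosen with earlier results of these data known, and genes named are the 4 genes, those of the lists and the 5 most similar to each. Same-numbered libraries correlated between −0.119 and 0.113 in their deviations from group means, so the numbers were not taken as pairs.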

Additional observations from a re-analysis of the deposited data

Results flagged for a closer look

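The difference of En1 between hindlimb and forelimb in ES–LBs differed from that in the early limb buds by −1.18 ± 0.22 log2 units in a test of the difference itself (limma interaction over 12 libraries, adjusted p = 0.000581), which is what singled it out. En1 was 1.55 log2 units lower in ES–HLB than in ES–FLB and 0.37 lower in the early HLBs than in the early FLBs, with each of the 3 ES–HLB libraries below each of the 3 ES–FLB libraries. The value stayed between −1.32 and −1.08 when any 1 library was left out. By the study's legend the early HLBs were also older than the early FLBs. Of the 11 dorsal–ventral genes, Bmp4, Smad1 and Smad5 moved in the same direction as En1 in this test, and Bmp2, Bmp7 and Msx1 in the opposite one. The 12 surface ectoderm markers summed to 127–186 CPM (ES–FLB) and 245–258 CPM (ES–HLB) in vitro and at the early stage to 497–623 CPM (FLB) and 452–537 CPM (HLB), and their part in this difference was not tested.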

How the results depend on the processing

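Of 643 values of the 4 genes under other settings, 614 kept their direction and side of the threshold, 23 lost the call, 6 gained it and 0 turned. With CPM as deposited, the hindlimb-minus-forelimb differences at E10.5 were 0.49 for Lmx1b, 0.99 for Lhx2, 0.41 for Lhx9 and −0.42 for En1, none called (0 of 4), the hindlimb stage changes −0.25 for Lmx1b, −0.027 for Lhx2 and −0.78 for En1, none called (0), and the forelimb stage change of Lhx2 was −0.37, not called. That scaling added Lhx2 between early limb types (0.65, 1 gene) and between ES–LBs and Ca (0.69). It left the truncated library inflated and moved the share of higher calls among all genes at E10.5 between limb types from 53.8% to 16.7%. With all 27 libraries in a joint model, the E10.5 limb type calls of Lmx1b (0.34), Lhx9 (0.27) and En1 (−0.55) were lost (1 kept), as were the stage calls of Lhx2 (−0.57 forelimb, −0.33 hindlimb) and of Lmx1b (−0.55) in the hindlimb (1 kept). Without the trend and robust settings Lhx9 (0.27) and En1 (−0.55) were lost there (2 kept), and without the filter En1 (−0.55). Those 2 settings and a filter at 5 CPM added Lhx2 against Ca (0.53), and that filter left 1 gene called between ES–LBs. At a threshold of 0.001, Lmx1b (0.34) and En1 (−0.55) between E10.5 limb types (2 kept), Lhx2 with stage (−0.57, −0.33), En1 against TB (0.81) and Lmx1b of ES–LBs against TB (−0.62) were lost. The cause was not tested in any of these.

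Replicate numbers did not pair the libraries; with the replicate block, En1 between early limb types (−0.37, adjusted p = 0.0464) was gained, 1 gene in place of 0. Leaving out each library in turn, 503 of 522 values kept their side of the threshold and 0 called values turned, while 12 values that were not called either way changed sign, of Lmx1b and Lhx9 between early limb types, Lhx9 in both differences of differences and En1 of ES–LBs against TB. Ranges were 0.43 to 0.71 for Lhx2 between early limb types (0 to 1 gene called), 0.29 to 0.40 for Lmx1b and −0.78 to −0.42 for En1 between E10.5 limb types, −0.74 to −0.46 for the forelimb stage change of Lhx2, 0.22 to 0.44 for Lmx1b and 0.14 to 0.41 for Lhx2 in the stage change between limb types (0 to 2), −0.48 to −0.12 for En1 of ES–FLB against E10.5 FLB, 0.28 to 0.62 for Lhx2 in the limb type difference in vitro against the embryo (1 to 2), −0.80 to −0.41 for Lmx1b of ES–LBs against TB, and 0.15 to 1.00 for Lhx2 and −0.58 to −0.23 for Lhx9 of ES–LBs against Ca (2 to 4).

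Over all genes, the calls at the 0.001 threshold went from 2488 to 403 between early limb types, 3542 to 1486 between E10.5 limb types, 8395 to 5471 and 4162 to 1030 with stage in forelimb and hindlimb, 3292 to 750 for the stage change between limb types, 3289 to 1454 between ES–LBs, 3049 to 911 for the limb type difference in vitro against the embryo, and 4861 to 2036 and 6706 to 3697 for limb buds against BA and TB. As deposited they were 108 between E10.5 limb types, 249 with stage in the hindlimb, 595 for the stage change between limb types and 5764 in place of 9614 for ES–HLB against E10.5 HLB, and without the trend 1617 between E10.5 limb types. Between early limb types they were 1354, 1579 and 1623 without early FLB library 1, early HLB library 3 and early FLB library 3, and the hindlimb stage calls were 2734 without early HLB library 3. The share of higher calls went, as deposited, from 45.6% to 61.8% between early limb types, 42.5% to 66.0% and 35.1% to 73.5% with stage, 55.3% to 25.7% for the stage change between limb types, 48.1% to 62.4% and 48.1% to 60.6% for ES–LBs against early limb buds and 55.9% to 44.5% for the limb type difference in vitro. The median of all genes was then 0.14 and 0.17 (−0.06 and −0.05 in the scaled values) with stage and 0.23 and 0.18 (−0.03 and −0.02) for ES–LBs against early limb buds, and 0.16 and 0.20 for limb buds and ES–LBs against Ca, and no called difference of the 4 genes turned.

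The planned count test was not run, because whole reads could not be recovered closely enough. Depth limits the low levels, such as Lmx1b in ES–LBs (27 and 17 reads) and in Ca (2 reads).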
